A study of Mus musculus with 24 samples.

Results

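The matrix metalloproteinase (Mmp), ADAMTS, ADAMTS-like and TIMP genes were followed in hind paw, lumbar spinal cord and the dorsal root ganglia (DRG) of mice after activation of the lymphotoxin beta receptor (LTβR) in the paw. Genes were taken by symbol, and a gene was counted as a member of the set where it had at least 10 counts in at least 3 libraries of a tissue. Of 22609 gene symbols in the files, 51 belonged to these families and 46 met the minimum in some tissue, namely 19 of 23 Mmp, 18 of 19 Adamts, 5 of 5 Adamtsl and 4 of 4 Timp genes. Paw had 45 such genes, DRG had 41 and spinal cord 39, with 38 in all 3 tissues, and every one of them also passed the filter on low counts of its tissue. Mmp1a, Mmp7, Mmp20, Mmp21 and Adamts13 did not meet it anywhere, the most counts being 7, for Adamts13 in a paw library. Mmp10 was just inside, with at least 10 counts in 3 paw libraries, and Adamts16 was just outside in paw, with at least 10 counts in 2 libraries.

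All mice were male C57 animals 8 to 12 weeks old, and no other allele is named in the labels. The agonist was an antibody that activates LTβR, which belongs to the tumour necrosis factor receptor family, and 10 µg was injected into the hind paw each time. The group called day 6 had 2 agonist injections, separated by a day in the design text and marked 1d and 3d in the sample titles, the group called day 1 had 1 agonist injection and was sampled a day later, and the control group had IgG and was sampled a day after injection. Paw and DRG had all 3 groups and spinal cord had the day 6 and day 1 groups, with 3 libraries per group and 24 in all. Day 6 differs from the other groups both in time and in the number of injections, which cannot be told apart, and the sources count its interval from different injections. Paw tissue was a punch biopsy, so it held epidermis, dermis and, in most libraries, skeletal muscle.

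The Mmp genes encode zinc endopeptidases, made as inactive proenzymes, that cleave collagens, gelatin, proteoglycans and many cell surface and signalling proteins. The ADAMTS genes encode secreted relatives that carry thrombospondin repeats, several of which cleave the proteoglycans versican and aggrecan, while the ADAMTS-like proteins share the repeats and lack the protease domain. The TIMP proteins bind the active site of these enzymes and inhibit them. In skin the families are known from wound repair and matrix turnover, and in the nervous system from myelin, perineuronal matrix and the response to nerve injury.

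Total counts in genes, in units of 1e6, were 24.2 to 41.0 per library in paw, 21.6 to 34.2 in DRG and 15.7 to 26.3 in spinal cord. Several libraries stood apart. Paw control 1 had a summed level of 12 skeletal muscle genes of 215 counts per 1e6 counts (CPM), and the remaining 8 paw libraries had 5095 to 36588 CPM. The first DRG control stood apart in another way, since 31.5% of its uniquely placed reads lay outside annotated genes and 13.1 to 13.8% did so in the remaining DRG libraries, and the muscle sum in DRG ran from 77.4 to 6634 CPM. In spinal cord the sum of 7 meningeal genes ran from 41.5 to 373 CPM. Markers of each labelled tissue were present. Keratinocyte sums were 51186 to 95885 CPM in paw, sensory neuron sums 3606 to 4504 CPM in DRG and spinal neuron sums 4342 to 5542 CPM in spinal cord. The spinal neuron list was not particular to spinal cord, since it summed to 1648 to 1825 CPM in DRG. Its genes Slc32a1 and Gad1 had 234 to 304 CPM and 206 to 244 CPM in spinal cord. In DRG they reached at most 0.0574 CPM and 0.951 CPM.

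The tissues differed strongly in which family members they held. On CPM normalised over all 24 libraries, the mean level was highest in paw for 20 genes, in DRG for 16 and in spinal cord for 10. The libraries of the highest tissue did not overlap those of either other tissue for 10, 8 and 7 of them in that order of tissues. Mmp3, Mmp10, Mmp12, Mmp1b and Mmp27 met the count minimum in paw alone. For these genes the rule of choice itself favoured paw as the highest tissue. Mmp2, a gelatinase, averaged 280 CPM in paw, 78.2 CPM in DRG and 10.5 CPM in spinal cord. Its cell surface activator Mmp14 followed the same order at 121, 57.9 and 29.3 CPM. The stromelysin Mmp3 averaged 51.4 CPM in paw, 0.139 CPM in DRG and 0.0635 CPM in spinal cord. Other genes separate and highest in paw were the procollagen N-proteinases Adamts2 and Adamts14, which trim fibrillar procollagens, and Timp1, Adamts12, Mmp10, Mmp19 and Mmp27.

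**Figure D1:**
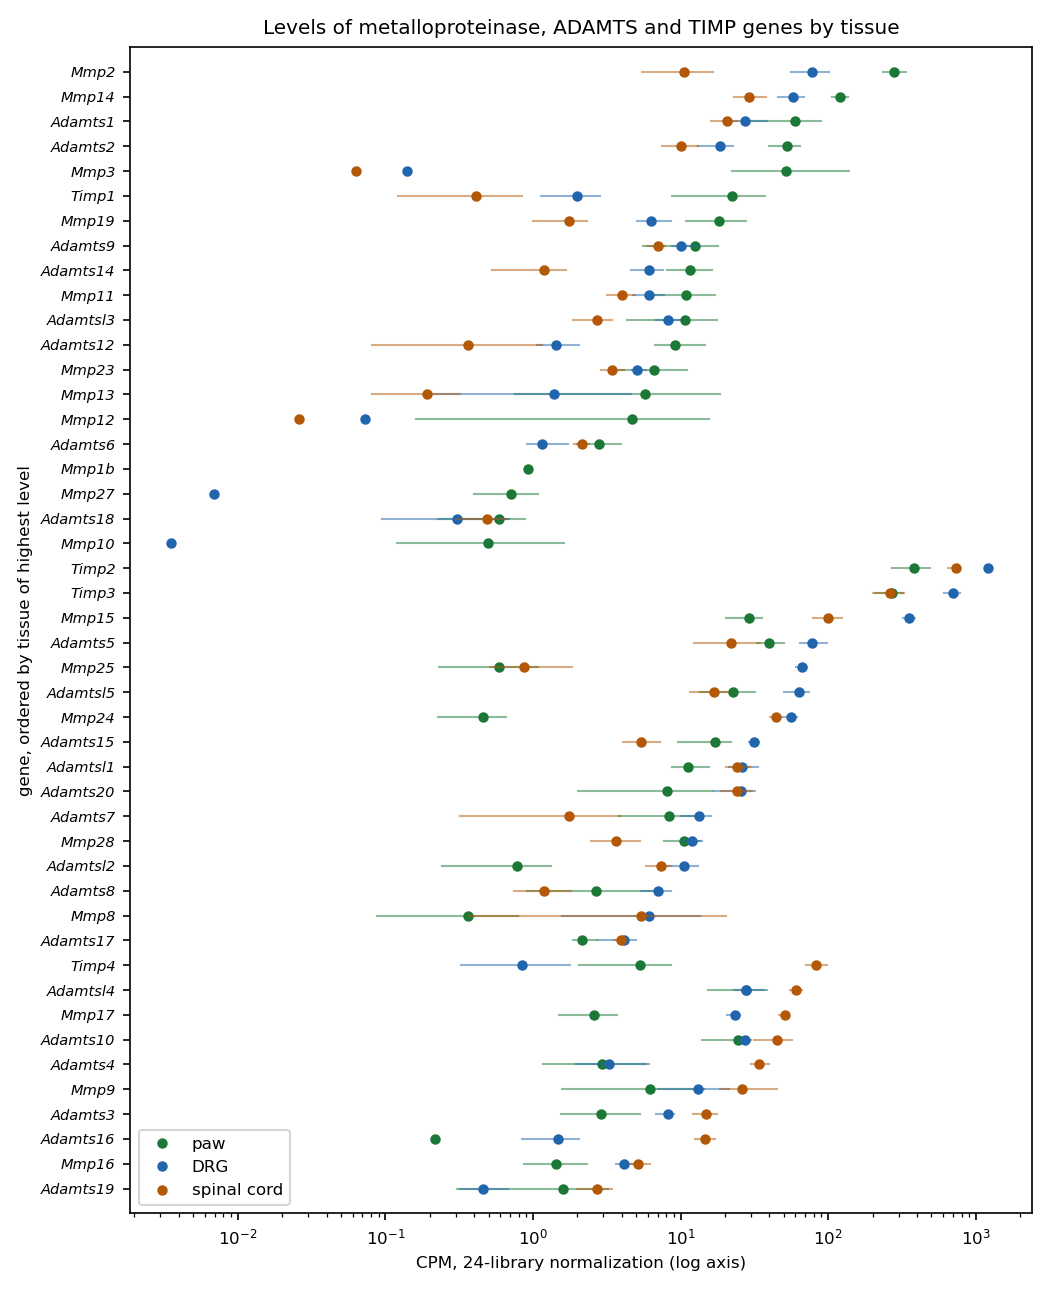
Each row is 1 of the 46 genes, grouped by the tissue of highest level, and the horizontal axis is CPM normalised over all 24 libraries on a log scale. Points are tissue means and bars run from the lowest to the highest library (no bar is drawn where a library is at 0 or the mean is very low), with paw in green, DRG in blue and spinal cord in orange; Mmp2 averaged 280 CPM in paw and 10.5 CPM in spinal cord, while Timp4 averaged 5.34 CPM in paw and 83.2 CPM in spinal cord.

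Of the 6 enzymes classed as membrane-type (Mmp14, Mmp15, Mmp16, Mmp17, Mmp24 and Mmp25), Mmp15, Mmp24 and Mmp25 were highest in DRG. Mmp25, which is attached by a lipid anchor, averaged 0.589 CPM in paw, 66.6 CPM in DRG and 0.868 CPM in spinal cord. Mmp15, a transmembrane enzyme, averaged 28.8 CPM in paw, 352 CPM in DRG and 99.3 CPM in spinal cord. Mmp24, a transmembrane enzyme known from neurons, averaged 0.460 CPM in paw, 56.1 CPM in DRG and 44.4 CPM in spinal cord. Spinal cord was highest for the aggrecanase Adamts4, at 2.94 CPM in paw, 3.26 CPM in DRG and 33.8 CPM in spinal cord, and for Adamts16, at 0.215, 1.47 and 14.7 CPM in the same order. Adamts5, the other well known aggrecanase, was highest in DRG, where its libraries did not overlap those of paw or spinal cord. The tissues were set against each other in matched groups. In IgG controls, edgeR called 19 of the 46 genes higher and 19 lower in paw than in DRG, a share of 82.6% where 80.7% of all genes tested were called, 40.2% as higher and 40.5% as lower. On day 1, it called 24 higher and 16 lower in paw than in spinal cord, 87.0% where 83.4% of all genes were called, 42.2% as higher and 41.2% as lower. On day 1, it also called 24 higher and 9 lower in DRG than in spinal cord, 71.7% where 64.2% of all genes were called, 32.5% as higher and 31.7% as lower. Thus 41.3% of members were higher and 41.3% lower in paw than in DRG, 52.2% higher and 34.8% lower in paw than in spinal cord, and 52.2% higher and 19.6% lower in DRG than in spinal cord. The split was close to that of all genes in the first contrast and leaned to higher in both contrasts with spinal cord. The choice of genes bears on these splits. Mmp3, Mmp10, Mmp12, Mmp13, Mmp1b, Mmp27 and Adamts12 missed the count minimum in spinal cord. All but Mmp1b were called higher in paw than in spinal cord, and Adamts12 and Mmp13 higher in DRG. Mmp3, Mmp10, Mmp12, Mmp1b and Mmp27 also missed the minimum in DRG and were called higher in paw. Adamts16 alone missed the minimum in paw, where it was called lower. The lean was therefore not read as a result about the families. Tissue and library batch cannot be told apart. The log2 fold change of paw over DRG was -7.18 ± 0.40 (SE) for Mmp25, -7.01 ± 0.19 for Mmp24 and -3.80 ± 0.16 for Mmp15, and that of paw over spinal cord was 5.05 ± 0.29 for Mmp2, with edgeR adjusted p of 1.88e-12, 1.94e-17, 1.48e-14 and 2.68e-12 in that order.

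Per exon length, Timp2 had the highest mean in paw controls, DRG controls and the day 1 spinal cord. Not every inhibitor was high, since Timp1 was at 0.269 CPM per kb in the day 1 spinal cord. In paw controls Timp2 was at 88.9 CPM per kb and Mmp2 at 86.7 CPM per kb, followed by Timp3 at 55.0, Mmp3 at 41.0 ± 31.9 (SD, n = 3), Timp1 at 29.8 and Mmp14 at 28.3 CPM per kb. In DRG controls Timp2 reached 324 CPM per kb and Timp3 155 CPM per kb, and the leading protease was Mmp15 at 69.2 CPM per kb. In the day 1 spinal cord Timp2 was at 209 CPM per kb, Timp3 at 52.4, Mmp15 at 18.7, Timp4 at 15.7 and Adamtsl4 at 15.5 CPM per kb. In DRG and spinal cord the levels per length of Timp2 and Timp3 were above those of every protease of the set, and in paw the level per length of Mmp2 lay beside that of Timp2.

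In paw the clearest difference lay in a pair of proteoglycan-cleaving ADAMTS genes. Adamts1 and Adamts9, secreted enzymes known to cleave versican and aggrecan, were lower in day 6 paws than in control paws and than in day 1 paws. Adamts1 had 28.1, 35.2 and 36.4 CPM in day 6 paws, 74.1, 69.2 and 59.6 CPM in day 1 paws and 82.8, 79.0 and 56.0 CPM in control paws. Every day 6 library lay below every day 1 and control library, and the day 1 and control libraries overlapped. Adamts9 had 8.61, 6.56 and 5.25 CPM in day 6 paws, 14.1, 14.2 and 15.0 CPM in day 1 paws and 16.5, 16.0 and 12.1 CPM in control paws, with the same separation. The sequences upstream of both genes are shown because these are the members that fell. They are the RefSeq promoters on GRCm38.p6 from 250 bases before to 20 after the annotated start, both on the minus strand, at chr16:85803094-85803363 for Adamts1 and chr6:92943515-92943784 for Adamts9, and capitals mark a TATAAA motif.
Adamts1: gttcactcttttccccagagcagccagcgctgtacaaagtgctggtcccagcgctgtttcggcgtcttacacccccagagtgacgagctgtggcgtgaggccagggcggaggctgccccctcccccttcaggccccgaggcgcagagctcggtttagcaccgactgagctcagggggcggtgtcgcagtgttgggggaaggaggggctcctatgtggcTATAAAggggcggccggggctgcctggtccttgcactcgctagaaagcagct
Adamts9: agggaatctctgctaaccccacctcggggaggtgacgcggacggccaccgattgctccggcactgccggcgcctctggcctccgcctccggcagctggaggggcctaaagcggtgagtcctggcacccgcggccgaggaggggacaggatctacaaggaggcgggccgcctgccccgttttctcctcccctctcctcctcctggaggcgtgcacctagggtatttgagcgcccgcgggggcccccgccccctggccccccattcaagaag
Adamts1 has the motif and Adamts9 does not. Neither window holds TGANTCA, the motif of AP-1 factors. Both motifs were searched on both strands. Among 32851 RefSeq mouse promoters, each 300 bases long, 13.6% hold TATAAA and 7.81% hold TGANTCA. Of the 31 members with a RefSeq promoter, TATAAA is present for 8 and TGANTCA for 5.

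Adamts1 fell by 1.12 ± 0.17 (SE) on the log2 scale in day 6 paws against control paws, 33.3 ± 4.49 CPM against 72.6 ± 14.5 CPM (SD, n = 3 each; edgeR quasi-likelihood test, Benjamini-Hochberg adjusted p = 0.0291). Adamts9 fell by 1.12 ± 0.19, with 6.80 ± 1.69 CPM on day 6 against 14.8 ± 2.42 CPM in controls (adjusted p = 0.0445). Against day 1 paws, Adamts1 fell by 1.02 ± 0.17 (adjusted p = 0.0334) and Adamts9 by 1.08 ± 0.19 (adjusted p = 0.0444), with day 1 means of 67.6 ± 7.36 CPM and 14.4 ± 0.512 CPM. Both comparisons share the day 6 libraries, so they are not independent. Of the 45 genes tested in paw these 2 were the only ones called in either comparison, 4.44% of the set. At an unadjusted p under 0.05 there were 6 members against controls (13.3%, against 9.74% of all genes) and 5 against day 1 (11.1%, against 14% of all genes). Among all genes, 0.706% were called in day 6 against control paws, 0.0392% as lower (6 of 15287 genes). In day 6 against day 1 paws 1.03% were called, 0.0785% as lower. The calls rest on all 3 libraries of each group. Leaving out 1 library at a time kept the log2 fold change of Adamts1 against controls between -1.28 and -0.98, with adjusted p of 0.0416 to 0.137, under 0.05 only without day 6 library 3. For Adamts9 against controls adjusted p then was 0.0673 to 0.202, and against day 1 it was 0.055 to 0.161 for Adamts1 and 0.0743 to 0.218 for Adamts9, none under 0.05. In biopsies, fewer cells of a type and less RNA per cell cannot be told apart. Summed macrophage markers (10 of 10 genes present) were 1553, 1466 and 981 CPM in day 6 paws, 422, 515 and 313 CPM in day 1 paws and 471, 476 and 349 CPM in control paws. Endothelial sums (7 of 7 genes) overlapped, at 350 to 451 CPM on day 6, 379 to 485 CPM on day 1 and 233 to 460 CPM in controls, and fibroblast sums (8 of 8 genes) overlapped too. The part of macrophage RNA in the Adamts1 and Adamts9 values was not tested.

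**Figure D2:**
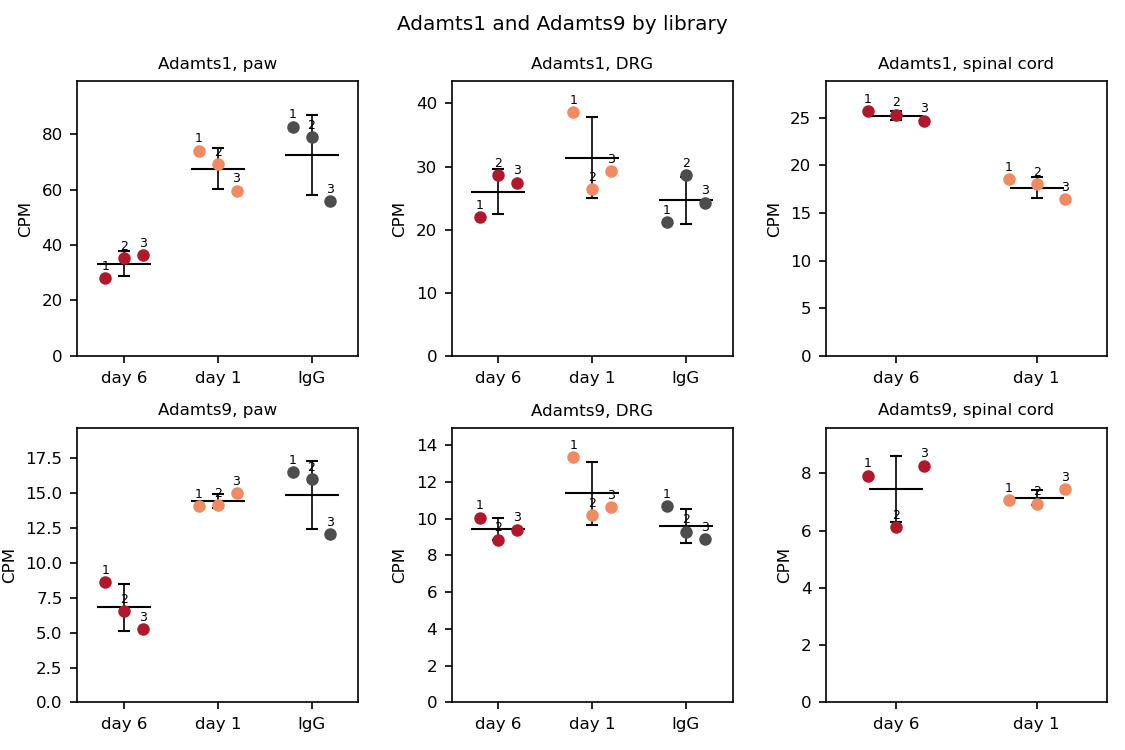
Panels give Adamts1 (top) and Adamts9 (bottom) in paw, DRG and spinal cord, with CPM on the vertical axis, which starts at 0, and groups on the horizontal axis. Points are libraries with their replicate number, lines are means and bars are SD (n = 3); the day 6 paws lie at 28.1 to 36.4 CPM for Adamts1 and 5.25 to 8.61 CPM for Adamts9, below all other paw libraries. In DRG the day 6 libraries overlap the controls for both genes and lie below the day 1 libraries for Adamts9, which range from 10.2 to 13.3 CPM.

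The day 6 response of paw was tested against that of DRG, the ganglia that hold the sensory neurons of the paw. Adamts1 had 22.0, 28.6 and 27.5 CPM in day 6 DRG, 38.6, 26.4 and 29.2 CPM in day 1 DRG and 21.2, 28.6 and 24.3 CPM in control DRG. Adamts9 had 10.1, 8.85 and 9.39 CPM in day 6 DRG, 13.3, 10.2 and 10.6 CPM in day 1 DRG and 10.7, 9.28 and 8.88 CPM in control DRG. In DRG the day 6 and control libraries of both genes overlapped. The day 6 DRG libraries of Adamts9 all lay below those of day 1, the same direction as in paw, at -0.27 ± 0.12 (unadjusted p = 0.0468, edgeR adjusted p = 0.726), and those of Adamts1 overlapped day 1. The response of paw minus that of DRG on day 6, fitted as an interaction over all 24 libraries, was -1.19 ± 0.23 on the log2 scale for Adamts1 (edgeR adjusted p = 0.0203) and -1.09 ± 0.22 for Adamts9 (adjusted p = 0.0273). These were the 2 called members of 46, where 0.581% of all genes were called and 0.0237% in this direction (4 of 16864). With each paw library paired by number to the DRG library of its group, an alternative chosen after seeing the data, neither gene was called, at -1.19 for Adamts1 (adjusted p = 0.0545) and -1.12 for Adamts9 (adjusted p = 0.09). With 1 of the 12 libraries left out in turn, adjusted p was 0.00606 to 0.0785 for Adamts1, under 0.05 in 6 of 12 fits, and 0.012 to 0.0875 for Adamts9, under 0.05 in 4 of 12. For the day 1 responses, edgeR called 0 of 46 members as different between paw and DRG, with 10 at an unadjusted p under 0.05 (21.7%, against 10.7% of all genes), and 0.00593% of all genes were called. DESeq2 called Mmp11 and Mmp14 of the members and 0.483% of all genes. The edgeR difference was -1.30 ± 0.31 for Mmp11 (adjusted p = 0.171) and -0.49 ± 0.13 for Mmp14 (adjusted p = 0.214).

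Apart from Adamts1 and Adamts9, no proteoglycanase of the paw passed the test. With these included the class holds 7 genes, namely Adamts1, Adamts4, Adamts5, Adamts8, Adamts9, Adamts15 and Adamts20. All 7 had negative log2 fold changes in day 6 against day 1 paws, with a median of -0.73. Of all genes 48.6% were positive and the median was -0.01, and 2 of the 7 were called. Against controls 5 of the 7 were negative and 2 positive, with a median of -0.38, and the same 2 were called. Adamts8 had 2.75, 1.16 and 0.963 CPM in day 6 paws, 6.68, 5.10 and 2.14 CPM in day 1 paws and 0.846, 2.01 and 1.73 CPM in control paws. Its day 1 libraries lay above its control libraries, at a log2 fold change of 1.60 ± 0.55 (adjusted p = 0.4), and the day 6 value against day 1 was -1.52 ± 0.54 (adjusted p = 0.261). Adamts5 showed overlapping groups, at 44.2, 35.8 and 31.3 CPM in day 6 paws, 40.7, 42.3 and 31.4 CPM in day 1 paws and 39.9, 49.6 and 32.7 CPM in control paws.

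One day after the agonist, no member of the set passed the test in paw. edgeR called 0 of 45 against controls, with 8 at an unadjusted p under 0.05 (17.8%, against 10.6% of all genes), and 0.00654% of all genes were called. DESeq2 called Adamts7 and Mmp11 of the members and 1.39% of all genes. Adamts7, a protease known to cleave cartilage oligomeric matrix protein, had 10.8, 13.0 and 9.37 CPM in day 1 paws and 3.54, 6.33 and 6.25 CPM in control paws. Its day 1 libraries all lay above the controls, by 1.04 ± 0.25 on the log2 scale (edgeR adjusted p = 0.357), and its day 6 libraries had 9.01, 7.63 and 6.46 CPM. Mmp11, a stromelysin of stromal cells, had 6.80, 8.12 and 6.31 CPM in day 1 paws and 11.6, 16.9 and 13.9 CPM in control paws, all day 1 libraries lying below the controls (-0.999 ± 0.29, edgeR adjusted p = 0.364). On day 6 its libraries had 15.1, 9.38 and 6.59 CPM and overlapped both other groups. Mmp28, an enzyme known from keratinocytes, had 9.04, 7.61 and 9.83 CPM in day 1 paws and 12.4, 13.5 and 11.2 CPM in control paws (-0.48 ± 0.15, adjusted p = 0.386). In 7 of 45 members the day 1 and control libraries did not overlap, a share of 15.6% where 15% of all genes had this property.

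Members higher in day 6 paws than in control paws also missed the threshold. Adamts12 had 14.4, 10.9 and 7.89 CPM on day 6 and 6.24, 7.20 and 7.39 CPM in controls (0.67 ± 0.24, edgeR adjusted p = 0.367). Mmp23 had 10.98, 8.15 and 6.90 CPM on day 6, 4.13, 6.44 and 5.85 CPM on day 1 and 3.30, 6.50 and 5.30 CPM in controls. Its day 6 libraries lay above both other groups, at 0.78 ± 0.29 against controls (adjusted p = 0.388) and 0.67 ± 0.29 against day 1 (adjusted p = 0.346). Mmp12, the macrophage elastase, had 15.5, 7.51 and 3.48 CPM on day 6, 0.927, 9.63 and 0.459 CPM on day 1 and 0.604, 3.00 and 0.157 CPM in controls. The day 6 libraries lay above the controls, one day 1 library reached the day 6 range, and the macrophage marker sums given above were also higher on day 6; their part in the Mmp12 values was not tested. Adamtsl3 had 9.89, 7.49 and 7.36 CPM on day 6 and 17.3, 17.1 and 10.0 CPM on day 1, a log2 fold change of -0.85 ± 0.37 (adjusted p = 0.348). Over all 45 members the median log2 fold change was 0.05 in day 6 against control paws, where that of all genes was -0.01, and 7 members (15.6%) had day 6 libraries that did not overlap the controls, against 14.1% of all genes. Against day 1 it was again 7 members (15.6%), where 22.2% of all genes had groups that did not overlap.

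**Figure D3:**
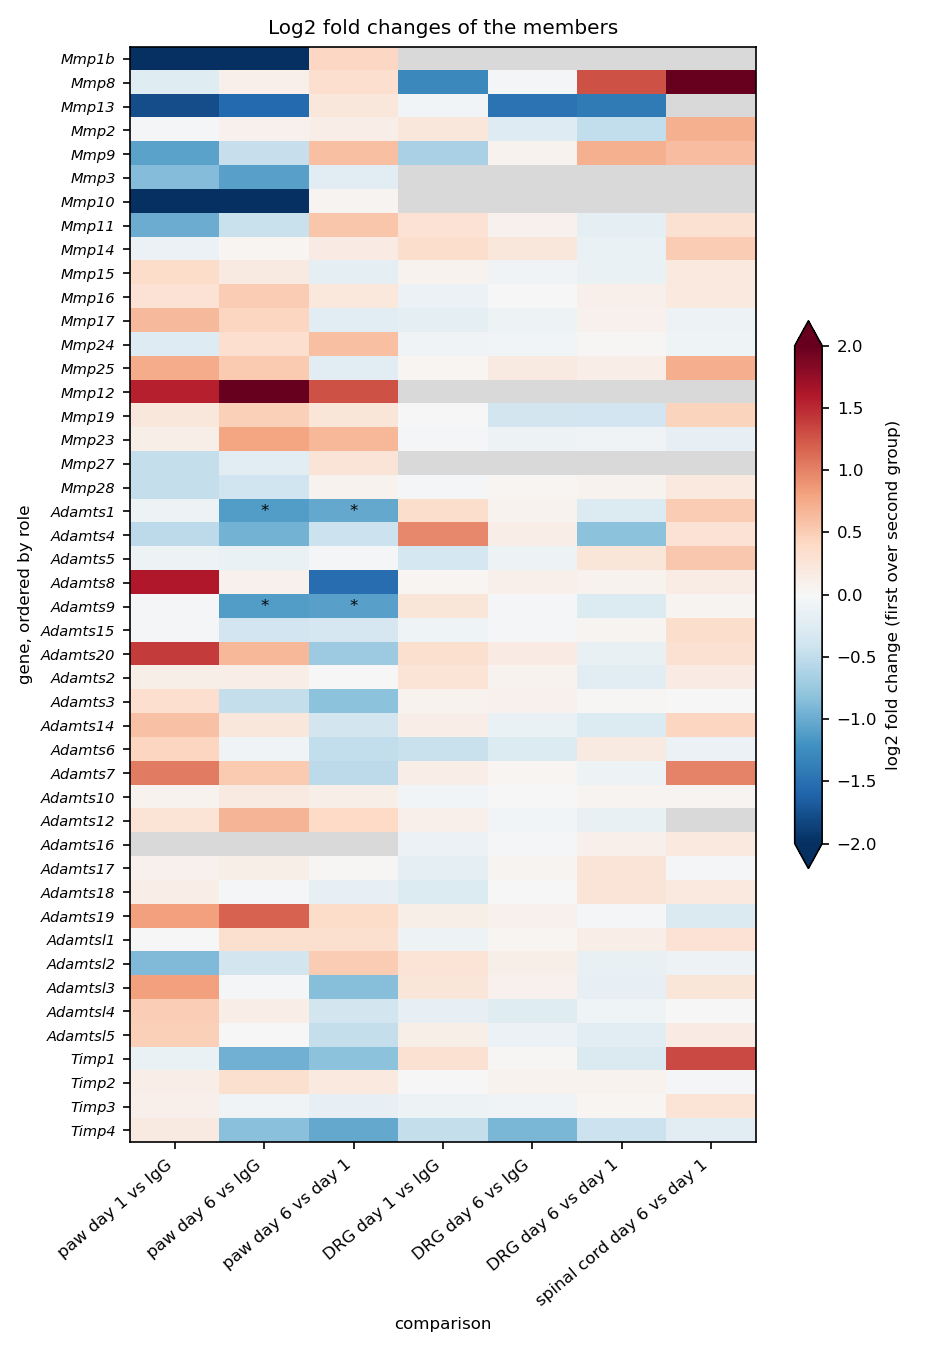
Rows are the members ordered by role and columns are the 7 comparisons within a tissue, each given as first over second group; colour is the edgeR log2 fold change, cut at 2 in either direction, grey marks genes under the count minimum in that tissue, and an asterisk marks an adjusted p under 0.05. The asterisks stand at Adamts1 and Adamts9 in both day 6 paw comparisons.

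The Mmp genes known to be induced by injury spread widely among the control paws. Mmp3, a stromelysin that keratinocytes and fibroblasts make in wounds, had 23.7, 59.4 and 21.1 CPM in day 6 paws, 48.6, 37.1 and 36.1 CPM in day 1 paws and 62.5, 136 and 22.8 CPM in control paws. Mmp13, the main mouse collagenase, had 1.40, 8.15 and 0.715 CPM on day 6, 3.54, 3.32 and 2.03 CPM on day 1 and 17.0, 12.2 and 1.26 CPM in controls. Control library 3 was low for both genes and day 6 library 2 was high. Mmp10, another stromelysin, had 0.172, 0.364 and 0.155 CPM on day 6, 0.253, 0.302 and 0.115 CPM on day 1 and 1.49, 1.11 and 0.314 CPM in controls. Its log2 fold change was -2.02 ± 0.61 on day 6 (edgeR adjusted p = 0.247) and -2.08 ± 0.62 on day 1 (adjusted p = 0.368) against the same controls. Mmp1b, a rodent relative of the human interstitial collagenase gene, had 0, 0.911 and 0.0311 CPM on day 6, 0.365, 0.0335 and 0.344 CPM on day 1 and 4.27, 1.89 and 0.0393 CPM in controls. It is uncertain, since reads may be shared with its near copy Mmp1a. Mmp9, a gelatinase of keratinocytes and leukocytes, had 2.72, 13.4 and 1.49 CPM on day 6, 5.50, 3.25 and 2.87 CPM on day 1 and 11.2, 11.7 and 1.57 CPM in controls. The same libraries were high or low as for Mmp13.

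Summed markers of stressed keratinocytes (8 of 8 genes present) were high in some of the same libraries as these genes. The listed genes spread unequally over the paws, at 51.8 to 2097 CPM for Krt6a, 40.1 to 1845 CPM for Krt16 and 455 to 918 CPM for Sprr1b. Mmp3 was highest in control library 2, and the sum was highest in control library 1. The sum was 778, 3125 and 1128 CPM in day 6 paws, 2298, 1390 and 1574 CPM in day 1 paws and 7277, 6713 and 2118 CPM in control paws. Control libraries 1 and 2 were the highest and control library 3 lay among the agonist libraries, as for Mmp13 and Mmp10; its part in the Mmp values was not tested. Summed neutrophil markers, 6 of the 7 listed being in the files, were low in paw, at 8.65 to 22.2 CPM. Mmp3, Mmp10, Mmp13 and Mmp1b lie in a run of 10 neighbouring Mmp genes on chromosome 9 with 0 other protein-coding genes between them. Their RefSeq promoters on GRCm38.p6 are shown from 100 bases before to 20 after the annotated start because these members share elements as well as position. They lie at chr9:7445722-7445841 (plus strand) for Mmp3, chr9:7502242-7502361 (plus) for Mmp10, chr9:7272414-7272533 (plus) for Mmp13 and chr9:7388007-7388126 (minus) for Mmp1b. Capitals mark TGANTCA and TATAAA.
Mmp3: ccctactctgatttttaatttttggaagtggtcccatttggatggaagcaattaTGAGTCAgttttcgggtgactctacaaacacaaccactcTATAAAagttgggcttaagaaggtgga
Mmp10: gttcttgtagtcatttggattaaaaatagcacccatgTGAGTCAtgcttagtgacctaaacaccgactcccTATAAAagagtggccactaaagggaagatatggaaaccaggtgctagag
Mmp13: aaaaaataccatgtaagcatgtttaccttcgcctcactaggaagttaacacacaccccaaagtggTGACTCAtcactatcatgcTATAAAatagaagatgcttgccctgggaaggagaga
Mmp1b: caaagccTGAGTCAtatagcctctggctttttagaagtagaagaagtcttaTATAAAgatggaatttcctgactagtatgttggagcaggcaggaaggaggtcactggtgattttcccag
Each window has both motifs. In the 300 base promoters, both occurred together in 5 of the 31 members with a promoter, these 4 and their neighbour Mmp12, and in 1.54% of all promoters. A match is a description of the letters and not of binding.

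**Figure D4:**
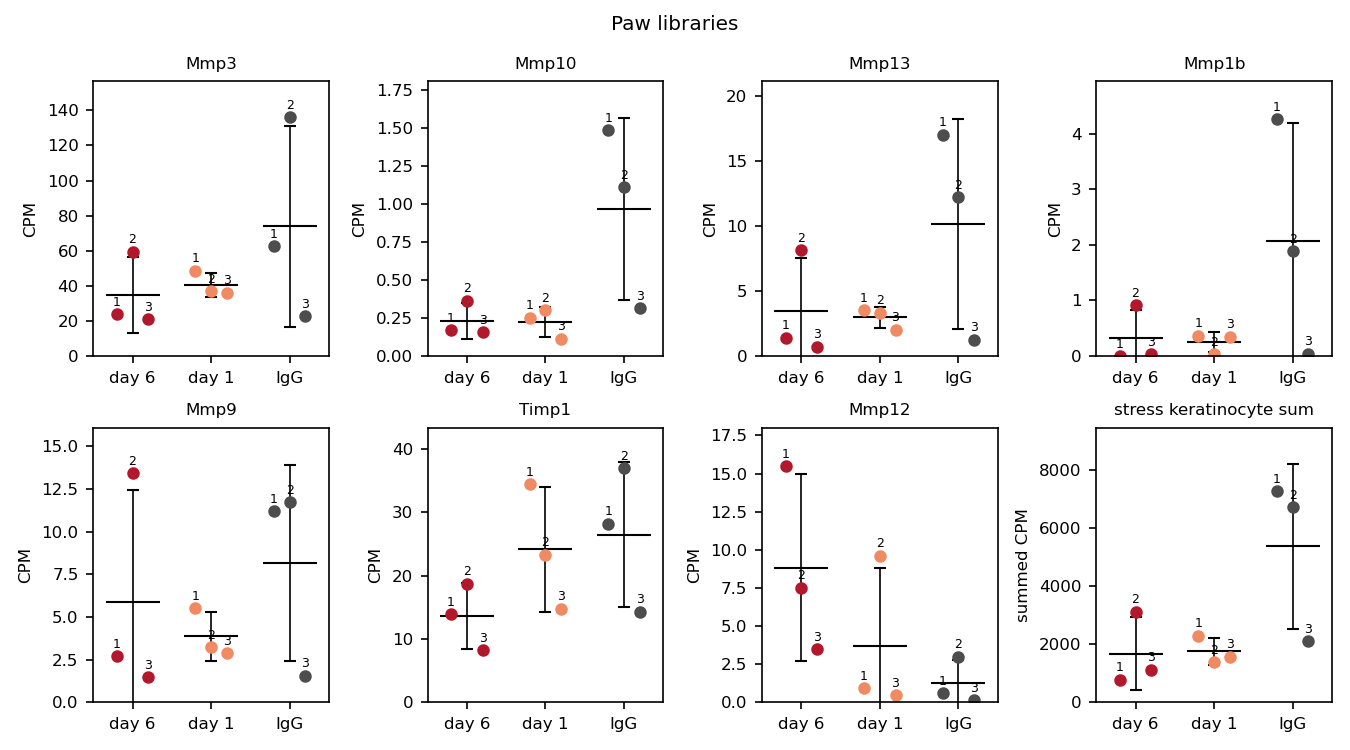
Panels show CPM of 7 genes and the summed CPM of 8 stress keratinocyte markers in paw, with day 6 left of day 1 and IgG on the horizontal axis. Points are libraries with their replicate number, lines are means and bars are SD (n = 3), cut at 0; control libraries 1 and 2 are high and control library 3 is low for Mmp10, Mmp13, Mmp1b, Mmp9 and the marker sum.

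The gelatinase Mmp2 and its activator Mmp14, the proteases of highest CPM in paw, did not separate the groups. Mmp2 had 332, 297 and 223 CPM in day 6 paws, 275, 268 and 237 CPM in day 1 paws and 259, 281 and 261 CPM in control paws. Mmp14 had 134, 122 and 112 CPM on day 6, 115, 111 and 101 CPM on day 1 and 115, 133 and 108 CPM in controls. The libraries of all 3 groups overlapped for both genes.

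The inhibitors were not called in any comparison within a tissue. In paw, Timp1, the TIMP gene known to be induced by inflammation, had 13.9, 18.7 and 8.26 CPM on day 6, 34.4, 23.3 and 14.8 CPM on day 1 and 28.2, 36.9 and 14.3 CPM in controls. Timp2 had 483, 413 and 343 CPM on day 6, 345, 422 and 313 CPM on day 1 and 248, 378 and 363 CPM in controls. Both showed overlapping groups. Timp3, which stays bound to the matrix and also inhibits ADAMTS enzymes, had 235, 260 and 245 CPM on day 6, 256, 302 and 276 CPM on day 1 and 190, 276 and 313 CPM in controls. Timp4 had 4.58, 2.55 and 2.61 CPM on day 6, 7.39, 6.47 and 5.81 CPM on day 1 and 1.89, 8.59 and 6.92 CPM in controls. Its day 6 libraries lay below every day 1 library. Control library 1, which held little muscle RNA, was the lowest of all, and the part of muscle RNA in the Timp4 values was not tested.

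In DRG and spinal cord Timp2 and Timp3 were abundant. DRG Timp2 had 1243, 1279 and 1259 CPM on day 6, 1159, 1211 and 1246 CPM on day 1 and 1193, 1175 and 1240 CPM in controls. DRG Timp3 had 621, 721 and 755 CPM on day 6, 730, 704 and 616 CPM on day 1 and 709, 788 and 694 CPM in controls. Both varied little between libraries. Timp1 was low in DRG, at 2.87, 1.64 and 1.14 CPM on day 6, 2.64, 2.01 and 2.28 CPM on day 1 and 1.55, 1.78 and 2.22 CPM in controls. DRG Timp4 was low too, at 0.574, 0.393 and 0.848 CPM on day 6, 1.17, 0.669 and 0.612 CPM on day 1 and 0.329, 1.20 and 1.80 CPM in controls. In spinal cord Timp2 had 785, 670 and 810 CPM on day 6 and 752, 808 and 760 CPM on day 1, and Timp4 had 75.2, 91.1 and 74.6 CPM on day 6 and 102, 80.0 and 96.0 CPM on day 1. The groups overlapped for both. Timp3 had 344, 208 and 340 CPM in day 6 cords and 211, 304 and 227 CPM in day 1 cords, also with overlap. Timp1, Timp3 and Timp4 each lie within a synapsin gene, and since the strand setting of the counting is not given in the sources used here, their reads and those of the synapsins may not be fully separated.

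In DRG no member passed the test in any comparison. On day 1 against controls edgeR called 0 of 41, with 3 at an unadjusted p under 0.05 (7.32%, against 7.40% of all genes), and 0.168% of all genes were called. DESeq2 called Mmp14 of the members and 0.821% of all genes. On day 6 against controls edgeR called 0 of 41, with 3 at an unadjusted p under 0.05, where 3.60% of all genes were, and both edgeR and DESeq2 called 0% of all genes there. On day 6 against day 1 edgeR called 0 of 41, with 8 at an unadjusted p under 0.05 (19.5%, against 6.83% of all genes), and edgeR called 0.103% of all genes. DESeq2 called Mmp2 of the members and 0.652% of all genes. Day 1 and control libraries did not overlap in 6 members (14.6%), where 13.2% of all genes had this property. Day 6 libraries did not overlap the controls in 3 members (7.32%, against 8.88% of all genes). Against day 1 it was 6 members (14.6%, against 12.5% of all genes). Mmp14 had 62.7, 60.2 and 55.6 CPM in day 6 DRG, 68.8, 65.7 and 60.5 CPM in day 1 DRG and 46.4, 52.1 and 54.2 CPM in control DRG. Both agonist groups lay above the controls, by 0.35 ± 0.07 on the log2 scale on day 1 (edgeR adjusted p = 0.127) and 0.22 ± 0.07 on day 6 (adjusted p = 0.995). Control library 1, with its high share of reads outside genes, was the lowest, and without it the day 1 value was 0.28 (adjusted p = 0.411).

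The aggrecanases of DRG had opposite signs on day 1. Adamts4 had 2.12, 3.05 and 2.87 CPM on day 6, 5.38, 5.90 and 2.92 CPM on day 1 and 2.54, 2.84 and 1.96 CPM in controls. The day 1 libraries lay above the controls, at 0.96 ± 0.26 (edgeR adjusted p = 0.324), and the day 6 value against day 1 was -0.82 ± 0.26 (adjusted p = 0.519). Adamts5 had 82.3, 75.7 and 84.6 CPM on day 6, 70.8, 68.8 and 65.1 CPM on day 1 and 90.5, 98.3 and 71.8 CPM in controls. The day 1 libraries lay below both other groups, at -0.35 ± 0.10 against controls (adjusted p = 0.356) and with a day 6 value against day 1 of 0.25 ± 0.10 (adjusted p = 0.694). Leaving out 1 library at a time gave day 1 values of Adamts5 between -0.47 and -0.25, with edgeR adjusted p of 0.0352 to 0.763. It was under 0.05 in 1 of 6 fits, the one without control library 3, the lowest control.

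Mmp2 had 56.7, 72.2 and 68.1 CPM in day 6 DRG, 85.1, 89.3 and 102 CPM in day 1 DRG and 62.5, 87.1 and 86.9 CPM in control DRG. The day 6 libraries lay below all day 1 libraries, at -0.49 ± 0.14 (edgeR adjusted p = 0.502), and overlapped the controls (-0.26 on the log2 scale). Summed fibroblast markers (8 of 8 genes) moved alike, at 3084 to 3672 CPM on day 6, 4409 to 4557 CPM on day 1 and 3218 to 4616 CPM in controls, and their part was not tested. Mmp25, the DRG-enriched lipid-anchored enzyme, had 71.5, 72.2 and 73.0 CPM on day 6, 60.6, 66.5 and 70.1 CPM on day 1 and 63.9, 62.8 and 64.4 CPM in controls. Its day 6 libraries were the highest of the 9, by 0.18 ± 0.06 over controls (adjusted p = 0.995) and 0.14 ± 0.06 over day 1 (adjusted p = 0.694). Mmp8, the neutrophil collagenase, had 11.9, 6.16 and 4.92 CPM on day 6, 4.86, 1.58 and 3.09 CPM on day 1 and 5.64, 3.93 and 13.6 CPM in controls. Summed neutrophil markers (6 of 7 genes in the files) had the same highest libraries, at 224, 112 and 75.6 CPM on day 6, 69.0, 28.6 and 47.6 CPM on day 1 and 114, 71.9 and 169 CPM in controls, and their part was not tested. Mmp17, a lipid-anchored enzyme, had 20.9, 23.8 and 25.5 CPM on day 6, 21.1, 21.1 and 24.2 CPM on day 1 and 25.5, 25.01 and 24.5 CPM in controls. Its day 1 libraries lay below the controls, at -0.18 ± 0.09 (adjusted p = 0.702). Mmp19 had 5.83, 5.11 and 5.12 CPM on day 6, 6.81, 6.75 and 7.35 CPM on day 1 and 5.35, 8.70 and 6.60 CPM in controls. Its day 6 libraries lay below those of day 1 and overlapped the controls (-0.37 ± 0.16, adjusted p = 0.995). The ADAMTS-like genes Adamtsl4 and Adamtsl5 had overlapping groups. Adamtsl4 had 23.3, 27.3 and 27.2 CPM on day 6, 27.2, 26.6 and 28.4 CPM on day 1 and 24.2, 30.9 and 36.9 CPM in controls. Adamtsl5 had 50.6, 65.4 and 61.8 CPM on day 6, 72.3, 74.4 and 62.4 CPM on day 1 and 64.2, 67.1 and 61.5 CPM in controls. Over the 41 members the median log2 fold change lay between -0.07 and 0.01 in the 3 DRG comparisons.

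In spinal cord most members had positive fold changes on day 6, and none passed the test. edgeR called 0 of 39 members on day 6 against day 1, with 5 at an unadjusted p under 0.05 (12.8%, against 9.70% of all genes), and it called 0% of all genes. DESeq2 called Adamts1 and Mmp14 of the members and 0.354% of all genes. The log2 fold change was positive in 29 of 39 members (74.4%), where it was positive in 52.3% of all genes, and the median was 0.20 against 0.01. Adamts1 had 25.7, 25.3 and 24.7 CPM in day 6 cords and 18.5, 18.1 and 16.5 CPM in day 1 cords. The groups were tight and apart, at 0.51 ± 0.08 (edgeR adjusted p = 0.463), and in paw the day 6 libraries of the same gene lay below those of day 1. Mmp14 had 40.1, 32.5 and 34.7 CPM on day 6 and 23.7, 27.7 and 24.2 CPM on day 1 (0.51 ± 0.10), and Adamts4 had 37.1, 36.9 and 42.0 CPM on day 6 and 31.2, 32.6 and 31.3 CPM on day 1 (0.29 ± 0.07), both with an edgeR adjusted p of 0.463. All day 6 libraries of both genes lay above all day 1 libraries. Groups did not overlap in 5 members (12.8%), all of them higher on day 6. Of all genes, 16.4% had groups that did not overlap, 8.17% as higher and 8.21% as lower on day 6. Without day 6 library 2, edgeR called 6 members, Adamts1, Adamts4, Adamts7, Adamts20, Adamtsl1 and Mmp14, with adjusted p of 0.0225 for Adamts1 and 0.0212 for Mmp14, in a fit that called 818 genes or 5.36% of all genes. Day 6 library 2 had the lowest meningeal sum of its group, 51.3 CPM. Without it, day 6 meningeal sums all lay above those of day 1, which reached 201 CPM, so day and meningeal content cannot be told apart there. With each library left out in turn, Adamts1, Adamts4 and Mmp14 were each under 0.05 in 1 of 6 fits. Their edgeR adjusted p reached 0.957. Endothelial marker sums (7 of 7 genes) were also higher on day 6, at 226 to 293 CPM against 185 to 217 CPM on day 1, and their part was not tested.

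Several other cord members were high and low in the same libraries as meningeal and fibroblast markers. Adamts5 had 33.5, 12.7 and 36.0 CPM on day 6 and 14.8, 24.4 and 17.0 CPM on day 1, and Adamts7 had 2.96, 0.329 and 4.10 CPM on day 6 and 0.726, 1.84 and 1.08 CPM on day 1. Mmp2 had 17.6, 7.28 and 15.8 CPM on day 6 and 5.69, 11.5 and 7.73 CPM on day 1. Day 6 library 2 was low and day 1 library 2 was high within their groups for all 3 genes. The meningeal sum (7 of 7 genes) was 373, 51.3 and 318 CPM on day 6 and 41.5, 201 and 92.9 CPM on day 1, and the fibroblast sum (8 of 8 genes) was 1343, 319 and 1184 CPM on day 6 and 314, 811 and 464 CPM on day 1. Summed Schwann cell markers (5 of 5 genes) also spread widely, at 1064.5 to 11726 CPM on day 6 and 876 to 4865 CPM on day 1. The part of Schwann cell RNA was not tested. With the meningeal score as a covariate the log2 fold change of Adamts1 was 0.52 (edgeR adjusted p = 0.192) and that of Mmp14 0.43 (adjusted p = 0.228). Mmp8 had 21.5, 2.92 and 6.76 CPM on day 6 and 0.382, 0.735 and 1.79 CPM on day 1, with all day 6 libraries above day 1 (3.43 ± 0.99, adjusted p = 0.466). Mmp9 had 47.4, 28.1 and 22.7 CPM on day 6 and 19.1, 21.5 and 23.9 CPM on day 1. Neutrophil sums (6 of 7 genes in the files) were 318, 44.7 and 76.6 CPM on day 6 and 12.5, 14.2 and 25.6 CPM on day 1, day 6 library 1 being the highest for both genes and the sum; their part was not tested. Timp1 had 0.455, 0.535 and 0.884 CPM on day 6 and 0.306, 0.286 and 0.125 CPM on day 1, apart but low (1.32 ± 0.47, adjusted p = 0.482).

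**Figure D5:**
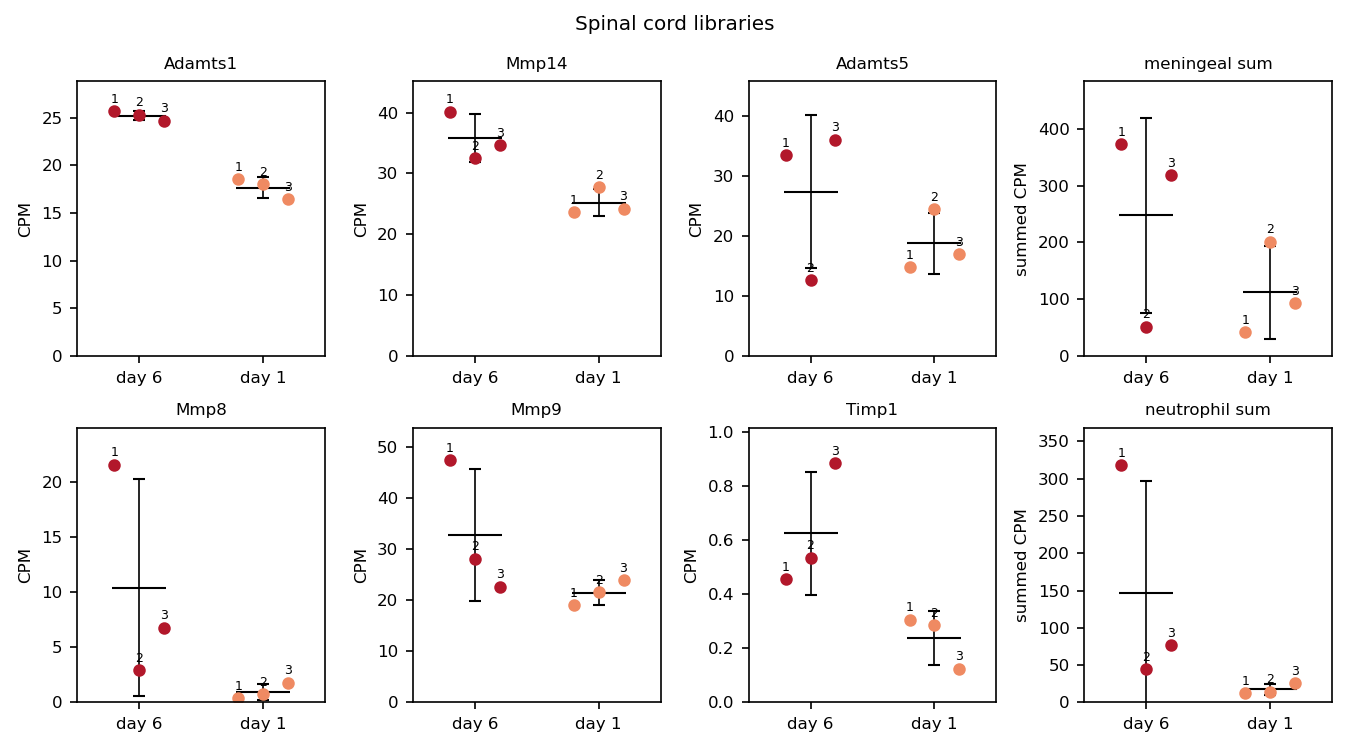
Panels show CPM of 6 genes and the summed CPM of the meningeal and neutrophil markers in spinal cord, with day 6 left of day 1. Points are libraries with their replicate number, lines are means and bars are SD (n = 3), cut at 0; Adamts1 and Mmp14 separate the groups, Adamts5 has its low day 6 and high day 1 value in the same libraries as the meningeal sum, and Mmp8 has its highest value where the neutrophil sum is highest.

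Genes that act beside the families were looked at as lists. Of 29 other proteases, activators and inhibitors, such as Plau, Furin, Reck and the cathepsins, 27 were tested in paw, and edgeR called 1 in day 6 against control paws and the same 1 in day 6 against day 1 paws. It was Ctss, cathepsin S, a lysosomal cysteine protease of antigen presenting cells, with 168, 164 and 127 CPM in day 6 paws, 49.8, 58.0 and 41.8 CPM in day 1 paws and 52.0, 59.7 and 42.9 CPM in control paws. Its day 6 libraries lay far above the rest, at 1.57 ± 0.17 over controls (adjusted p = 0.0147) and 1.61 ± 0.17 over day 1 (adjusted p = 0.0202), and macrophage marker sums were higher in the same libraries; their part was not tested. At an unadjusted p under 0.05 there were 2 of 27 in day 6 against control paws (7.41%, against 9.74% of all genes) and 8 of 27 in day 6 against day 1 paws (29.6%, against 14% of all genes). In the other 5 comparisons edgeR called 0 of this list, with 0 to 4 at an unadjusted p under 0.05 (0 to 14.8%, where all genes gave 3.6 to 10.6%), and DESeq2 called Adam17 in day 1 against control DRG and 0 in the rest. Of 23 matrix proteins that these enzymes process or bind, such as versican (Vcan), aggrecan (Acan) and the fibrillins, edgeR called 0 in each of the 7 comparisons. At an unadjusted p under 0.05 there were 0 to 6, the most being 6 of 23 in day 1 against control DRG (26.1%, against 7.4% of all genes) and 5 of 23 in day 6 against day 1 DRG (21.7%, against 6.83%). DESeq2 called Fbn1 in day 6 against control paws, where it called 3.13% of all genes, Col2a1 in day 6 against day 1 paws, where it called 4.5%, and Col3a1 in day 6 against day 1 DRG. The median log2 fold change of the 21 matrix genes tested in paw was 0.11 on day 6 and 0.30 on day 1 against controls.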

How the data were processed

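RNA of about 500 ng per sample was sequenced after polyadenylated RNA selection with a stranded kit, as 50 bp single reads, per the labels' protocols. The authors deposited raw counts per gene, made with bcl2fastq, TopHat2 on mm9 and HTSeq, per the submitters' processing notes; versions, annotation and strand setting are not given in the sources used here. The 5 summary lines of each file were left out of library sizes. There were 0 columns of other samples, and no replicate pair was identical.

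Each tissue was fitted over all its groups in R 4.3.3 with edgeR 4.0.16 (limma 3.58.1), by the quasi-likelihood F test with TMM, robust dispersions and the default filter on low counts. Tissue contrasts and the paw minus DRG responses used 1 fit of 24 libraries. Benjamini-Hochberg adjustment ran over all 15287 genes in paw, 15461 in DRG, 15096 in spinal cord or 16864 in the joint fit, with a threshold of 0.05 and 2-sided tests. CPM are TMM-normalised, errors of CPM are SD and those of log2 fold changes SE. Levels per kb divide CPM by the exon length in GENCODE M21, matched for 46 of 46 members. Promoters, for 31 of 46 members, came from RefSeq on GRCm38.p6.

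The members and lists were chosen with earlier results of these data known. Values in every library are given for members past the threshold in a comparison within a tissue, for the 5 with the smallest p there where fewer passed, and for every Timp gene; others named here were chosen after their values were seen. The labels do not say that samples are separate animals, so a p-value here covers only the spread among these samples, which may be technical. Replicate numbers were not treated as pairs. Deviations correlated above 0.1 in 5 of 21 same-numbered pairs within a tissue and in 6 of 9 between paw and DRG of a group, and the labels do not say that a number marks an animal. Alternatives were RLE normalization, no filter, a filter of 1 CPM in 3 libraries, the replicate number as a block, DESeq2 1.42.0, only the 2 groups compared, a muscle or meningeal covariate, and each library left out in turn. Pairing of paw and DRG libraries by number was added after seeing the data. The pipeline was tested on simulated counts.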

Additional observations from a re-analysis of the deposited data

Results flagged for a closer look

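The day 6 responses of Adamts1 and Adamts9 differed between tissues, by an interaction term over 24 libraries. The paw minus DRG difference of log2 fold changes was -1.19 ± 0.23 for Adamts1 (SE; edgeR adjusted p = 0.0203) and -1.09 ± 0.22 for Adamts9 (adjusted p = 0.0273). Pairing paw and DRG libraries by number, chosen after seeing the data, gave adjusted p of 0.0545 and 0.09 in that order. All 3 day 6 paws lay below all 3 control paws for both genes, while day 6 and control DRG overlapped. The day 6 paws also had the higher macrophage marker sums, of 981 to 1553 CPM against 349 to 476 CPM in control paws, where DRG sums were 260 to 303 CPM on day 6 and 245 to 280 CPM in controls; their part in the difference was not tested.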

How the results depend on the processing

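Adamts1 and Adamts9 in day 6 paws kept a negative sign under every alternative run, but not their calls. With the replicate number as a block the count of called members was 0 in place of 2 in both day 6 paw comparisons, with edgeR adjusted p of 0.0537 for Adamts1 and 0.0501 for Adamts9 against controls and of 0.0668 and 0.0526 against day 1; the labels do not say whether the numbers pair the samples. In the paw minus DRG response on day 6 this block kept both calls, but a block pairing the paw and DRG libraries of a group by number, chosen after seeing the data, gave 0 called members (adjusted p of 0.0545 for Adamts1 and 0.09 for Adamts9) and 34 called genes in all. The replicate number as a block changed no other call of a named member within a tissue. With only the 2 groups compared, the count was 0 against controls (adjusted p of 0.092 and 0.15) and remained 2 against day 1. RLE normalization, both filters, DESeq2 and the muscle covariate kept both genes called in both comparisons. Leaving out 1 library at a time gave 0 to 1 called members in day 6 against control paws, 0 to 0 in day 6 against day 1 paws, 0 to 2 for the paw minus DRG response on day 6 and 0 to 1 for that on day 1, 0 to 1 in day 1 against control DRG and 0 to 6 in spinal cord; the cause was not tested. DESeq2 called 2 members in day 1 against control paws, 1 in day 1 against control DRG, 1 in day 6 against day 1 DRG, 2 in spinal cord and 2 for the day 1 response, where edgeR called 0; the DESeq2 shares of all genes were 1.39%, 0.821%, 0.652%, 0.354% and 0.483% in that order. Counts over all genes moved more, from 0 to 508 in day 6 against control paws (108 as reported), 0 to 731 against day 1 (157), 0 to 201 in day 1 against control paws (1), 8 to 131 in day 1 against control DRG (26), 1 to 104 in day 6 against day 1 DRG (16), 0 to 818 in spinal cord (0), and 34 to 184 for the day 6 response (98) and 0 to 80 for the day 1 response (1). Of 1842 named values recomputed, 1742 kept direction and side of the threshold, 88 lost and 12 gained a call, and 0 changed sign. They came from 156 named results, of which 38, 40 and 33 were members called in the contrasts between tissues. A result not called at first cannot lose a call. These totals therefore do not measure how stable the calls of Adamts1 and Adamts9 were. With 3 libraries a group, members of low level such as Mmp10 and Mmp1b rest on few counts.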
